A study of Mus musculus with 19 samples.

Results

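The subunits of oxidative phosphorylation that the nucleus encodes were examined in 19 mRNA-seq libraries of mouse embryonic kidney cells. They were chosen by symbol alone, as every name in both deposited tables that begins with Nduf followed by a, b, c, s or v and a number, the genes Sdha, Sdhb, Sdhc and Sdhd, and every name beginning with Uqcr, with Cox and a number from 4 to 8, or with Atp5. This gave 83 of the 20128 names that the 2 tables share, of which 37 are named for complex I, 4 for complex II, 8 for complex III, 17 for complex IV and 17 for complex V. Cox8c met the rule in the E14.5 table only and was listed at 0 in all 4 libraries there. The patterns follow names and not structures: they put Ndufa4 with complex I, although its protein is now assigned to complex IV, and they include Cox7a2l, which helps complexes III and IV join, Atp5s, known as coupling factor B, and Atp5sl, which the annotation calls Dmac2 and which acts in complex I assembly. The 13 subunits encoded in mitochondrial DNA are not analysed here.

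Oxidative phosphorylation takes place in the inner mitochondrial membrane. Complex I accepts electrons from NADH and complex II from succinate, complex III passes them to cytochrome c, complex IV hands them to oxygen, and complex V, the ATP synthase, uses the resulting proton gradient to make ATP. Several complex IV subunits exist as general and tissue-restricted isoforms, some of them limited to muscle, lung or testis. In the embryonic kidney, nephron progenitors lie in a cap around the ureteric tips within stroma and have been described as relying strongly on glycolysis, whereas the mature proximal tubule depends on mitochondrial ATP.

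All libraries were made from kidneys of the CFW mouse strain, in 7 groups. At E16.5 (E for embryonic day), SIX2+ and SIX2− cells (n = 3 libraries each) were sorted from nephrogenic zone cells by MARIS, a method in which cells are fixed, stained for a protein inside the cell and sorted before RNA is taken, and the unsorted nephrogenic zone cells (NZC, n = 3) stood beside them; no allele is given for these groups. At the same stage, GFP+ and GFP− cells (n = 3 each) came from kidneys with the Six2TGC/+ genotype, an allele that drives GFP and Cre from Six2 and that both fractions carry. At E14.5, Tdt+ and Tdt− cells (n = 2 each) came from Foxd1Cre;Tdt kidneys, in which Cre driven by Foxd1, a stromal progenitor factor, switches on a lasting red reporter, so that Tdt+ cells include descendants that no longer express Foxd1. Pooling of animals is not described, nor is a separate animal for each library, and the p-values therefore describe spread among these libraries that may be technical. The RNA kit of each library is not given.

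The labels held for the sorting genes. Six2 measured 295 to 458 RPKM (reads for each kilobase of exon, divided by library depth) in SIX2+ libraries and 4.43 to 46.8 RPKM in SIX2− libraries, 312 to 348 RPKM in GFP+ and 2.70 to 16.8 RPKM in GFP− libraries, and 0.650 and 2.14 RPKM in Tdt+ against 117 and 96.6 RPKM in Tdt− libraries. Foxd1 measured 205 and 102 RPKM in Tdt+ libraries and 29.9 and 25.2 RPKM in Tdt− libraries. Depth was estimated from the most common low value after multiplication by exonic length, taken as the worth of 1 read. It was 25700000 to 46800000 reads in 14 E16.5 libraries, 8510000 and 9330000 in Tdt+ and 26900000 and 30900000 in Tdt− libraries. NZC library 2 stood apart, with an estimated 3090000 reads and with 762 RPKM of the ribosomal RNA gene Rn45s, against 2.12 to 32.5 RPKM in the other E16.5 libraries. It shares a fit with the other groups, so counts of members and of the neighbouring lists are also given without it where they change by over 1.5 times. The share of all genes called is given for the main fits only, so counts from other fits are not set against it.

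Transcripts of the respiratory chain were abundant in every group. The 79 members that passed the filter on low values held 2.14% to 3.39% of the summed RPKM of a library at E16.5 and 1.88% to 2.63% at E14.5. Their median level ran from 6.12 to 6.97 on the log2(RPKM + 1) scale across the E16.5 libraries, where the median over all genes tested ran from 3.32 to 3.47. At E14.5 the members' median ran from 5.99 to 6.93 and that of all genes from 3.54 to 3.75. Fewer cells with a high level and less RNA per cell cannot be told apart in such bulk samples.

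The complexes stood in nearly the same order of median level in most libraries. Complex I was lowest, followed by complexes II and III and then by complexes IV and V, in 14 of the 15 E16.5 libraries, NZC library 2 being the exception. At E14.5, complex I was lowest and complexes IV and V highest in all 4 libraries, but complexes II and III changed places in 3 of them. In SIX2+ libraries the complex medians averaged 6.38 ± 0.09 for complex I, 6.60 ± 0.04 for II, 7.10 ± 0.06 for III, 7.73 ± 0.11 for IV and 7.70 ± 0.12 for V on the log2(RPKM + 1) scale (SD, n = 3). Complexes IV and V lay closer together than their spread between libraries. In SIX2− libraries the same medians averaged 6.35 ± 0.12, 6.65 ± 0.11, 7.14 ± 0.16, 7.83 ± 0.17 and 7.86 ± 0.18 (SD, n = 3).

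**Figure D1:**
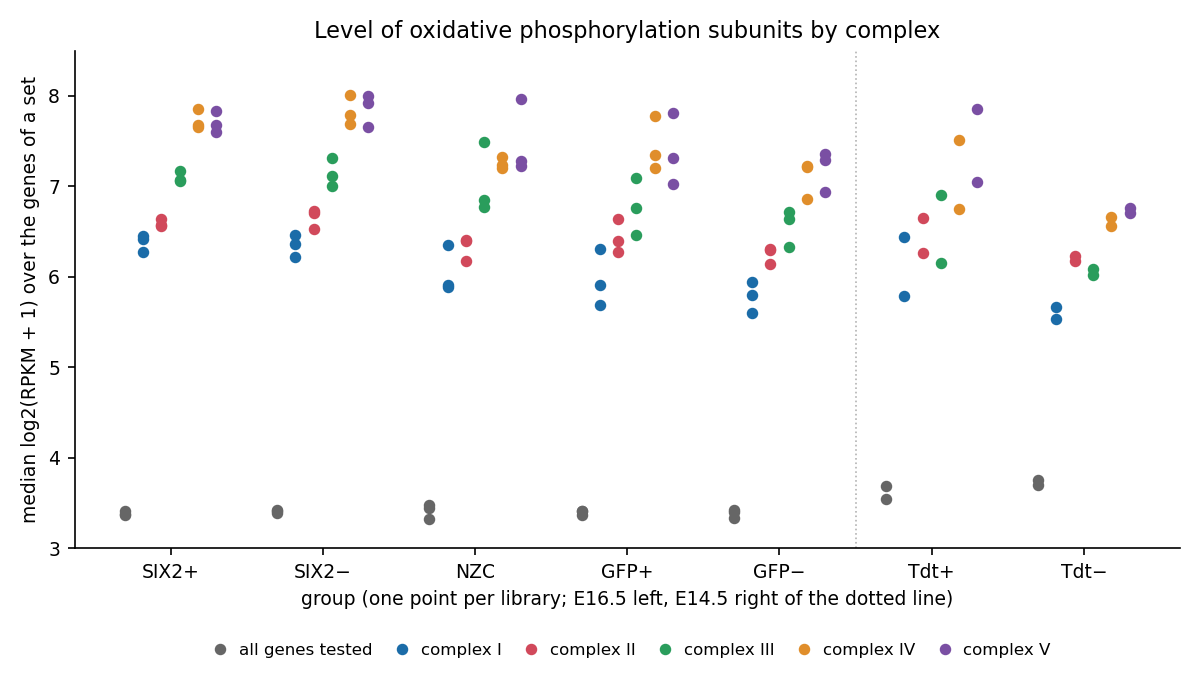
Median log2(RPKM + 1) over the tested genes of each complex and over all genes tested (vertical axis), with each point a library, in the 7 groups (horizontal axis; E14.5 lies right of the dotted line and was normalised separately). The complexes lie well above all genes in every library. GFP− library 1 holds the lowest values of complexes IV and V at E16.5, and both Tdt− libraries lie below both Tdt+ libraries in these complexes.

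Within complex V, Atp5b, the catalytic beta subunit, had the highest mean of the complex over the 15 E16.5 libraries, 590 RPKM, and Atp5s the lowest, 4.19 RPKM. In complex IV the highest was Cox4i1, the general form of subunit 4, at 336 RPKM, while Cox6a2 and Cox7b2 averaged under 0.01 RPKM. In complex III the range was narrower: Uqcrh, the hinge protein, had 261 RPKM and Uqcrc2, a core protein, 83.2 RPKM. The 4 subunits of complex II were nearly level, with Sdhb, the iron-sulfur subunit, at 96.8 RPKM, the membrane anchors Sdhd and Sdhc at 86.4 and 85.8 RPKM, and Sdha, the flavoprotein, at 80.9 RPKM. Among the genes named for complex I, Ndufa4 was highest at 261 RPKM and its relative Ndufa4l2 lowest at 8.49 RPKM.

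Few of these genes passed the test between nephron progenitors and the cells around them, but the number depended on the fit. Between SIX2+ and SIX2− cells, 4 of the 79 members passed limma's test at an adjusted p under 0.05: 1 was higher and 3 were lower in SIX2+ cells, where 24.3% of all 12817 genes tested passed, 8.37% higher and 15.9% lower. The members' median log2 fold change was −0.05, beside 0.04 over all genes tested. Of the members 37 lay above 0 and 42 below, beside 6943 and 5874 of all genes tested. By complex, the medians ran from −0.11 in complex V to 0.06 in complex II. The SIX2 count of 4 was 7 when only SIX2+ and SIX2− libraries were fitted, 31 with library weights (limma's weighting of libraries by their estimated quality) and 5 without NZC library 2. Between GFP+ and GFP− cells, 9 of the 79 passed, 6 higher and 3 lower in GFP+ cells, where 32.9% of all genes passed, 15.9% higher and 17% lower. The members' median was 0.20, beside 0.09 over all genes. Of the 79 members 67 lay above 0, beside 7352 of all 12817 genes tested. The complex medians ran from 0.15 in complex V to 0.30 in complex IV. The GFP count was 23 with library weights, 17 when NZC library 2 was left out of the fit, and 4 or 5 when GFP− library 1 or GFP+ library 1 was left out. Red cell RNA moved with the GFP sort: all 10 erythroid markers were lower in GFP+ cells, with sums of 18.7 to 80.6 RPKM in GFP+ and 1254 to 13024 RPKM in GFP− libraries, and its part in the members' shift was not tested.

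Ndufa4l2, a relative of Ndufa4 that is induced under low oxygen, showed the largest difference of any member in each sort. It measured 0.114, 0.159 and 0 RPKM in the SIX2+ libraries, against 22, 28.3 and 13.3 RPKM in the SIX2− libraries. In the other sort it measured 0.0244, 0.0798 and 0.418 RPKM in GFP+ libraries and 14.4, 16.2 and 9.97 RPKM in GFP− libraries. The groups did not overlap, and every progenitor library lay under 0.5 RPKM. The log2 fold change was −4.29 ± 0.32 for SIX2+ over SIX2− (SE; limma adjusted p = 2.23e-07) and −3.62 ± 0.32 for GFP+ over GFP− (adjusted p = 8.14e-07). The unsorted NZC libraries held 10.1, 8.68 and 3.63 RPKM. Ndufa4l2 lies at chr10:127514967-127517154 on the plus strand of GRCm38 and its exons overlap those of Shmt2 on the other strand; whether reads were counted by strand is not given in the sources used here.

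Its general counterpart Ndufa4 did not pass either test. Ndufa4 measured 343, 295 and 268 RPKM in SIX2+ libraries and 345, 356 and 261 RPKM in SIX2− libraries. The same gene measured 225, 305 and 189 RPKM in GFP+ libraries and 196, 229 and 220 RPKM in GFP− libraries, so the groups overlapped in each sort.

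Cox4i2, the form of cytochrome oxidase subunit 4 best known from lung and from oxygen-sensing cells, followed the same direction. It measured 1.36, 1.29 and 1.05 RPKM in SIX2+ libraries and 8.38, 9.37 and 5.17 RPKM in SIX2− libraries. GFP+ libraries held 0.937, 1.73 and 0.427 RPKM, and GFP− libraries 5.26, 4.76 and 3.73 RPKM. Neither pair of groups overlapped. The log2 fold change was −1.92 ± 0.48 in SIX2+ over SIX2− cells (SE; limma adjusted p = 0.00824) and −1.5 ± 0.48 in GFP+ over GFP− cells (adjusted p = 0.0268). The second call was lost without GFP+ library 1 or 3 or GFP− library 1 or 2 (adjusted p from 0.0646 to 0.102) and with a pseudocount of 5 (adjusted p = 0.107). Quantile normalisation (0.082) and keeping genes at low values in the test (0.0549) ended it too. The general form Cox4i1 measured 425, 378 and 358 RPKM in SIX2+ libraries and 374, 397 and 306 RPKM in SIX2− libraries, which overlapped.

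Cox6b2, the form of subunit 6B best known from testis, was also lower in the progenitors, by less. It measured 12.4, 13 and 13.4 RPKM in SIX2+ libraries and 18.5, 21.3 and 25.1 RPKM in SIX2− libraries, a log2 fold change of −0.69 ± 0.17 (SE; limma adjusted p = 0.00766). It measured 9.25, 13.5 and 10.2 RPKM in GFP+ libraries and 14.6, 19.3 and 18.6 RPKM in GFP− libraries, a log2 fold change of −0.63 ± 0.17 (adjusted p = 0.0109). Leaving out GFP+ library 1 ended the GFP call (adjusted p = 0.0526), as did leaving out GFP− library 2 (adjusted p = 0.0519). The general form Cox6b1 measured 284, 238 and 260 RPKM in SIX2+ libraries and 287, 319 and 248 RPKM in SIX2− libraries, with overlap. The summed level of the male germ cell markers, 4 listed at E16.5 and 5 at E14.5, was at most 0.588 RPKM in any library.

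**Figure D2:**
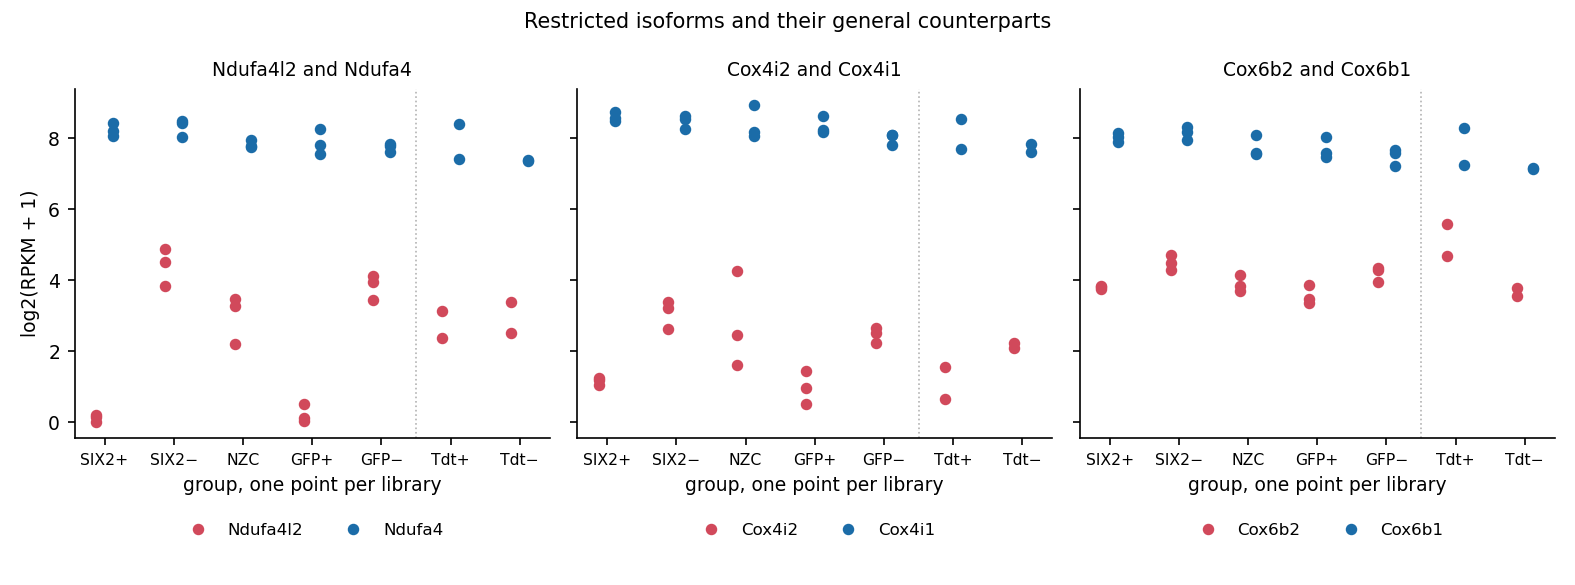
Level of 3 restricted isoforms (red) and their general counterparts (blue) on the log2(RPKM + 1) scale (vertical axis) in the 7 groups (horizontal axis), with each point a library; E14.5 lies right of the dotted lines. Ndufa4l2 lies near 0 in all SIX2+ and GFP+ libraries, Cox4i2 is lower in SIX2+ and GFP+ than in SIX2− and GFP− libraries, and Cox6b2 is higher in Tdt+ than in Tdt− libraries.

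The SIX2− and GFP− fractions hold many cell types, whose markers moved with these isoforms. The summed level of 9 cortical stroma markers was 51.8 to 59.5 RPKM in SIX2+ libraries and 1132 to 1843 RPKM in SIX2− libraries, and all 9 were lower in SIX2+ cells. All 6 endothelial markers were lower too, with sums of 2.24 to 5.57 RPKM in SIX2+ and 54.9 to 153 RPKM in SIX2− libraries. Of 7 tested striated and smooth muscle markers, 1 was higher and 2 were lower, with sums over the list of 51.3 to 91.2 RPKM in SIX2+ and 101 to 213 RPKM in SIX2− libraries. In the other sort the stroma sum was 58.4 to 78.6 RPKM in GFP+ and 2248 to 3001 RPKM in GFP− libraries, and the endothelial sum 1.64 to 6.94 RPKM and 41.0 to 79.4 RPKM in these groups. The part of these cells in the isoform differences was not tested.

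Uqcrfs1, the Rieske iron-sulfur protein of complex III, was the member that rose in SIX2+ cells. It measured 120, 108 and 108 RPKM in SIX2+ libraries and 90.0, 91.7 and 79.9 RPKM in SIX2− libraries, without overlap. The log2 fold change was 0.36 ± 0.12 (SE; limma adjusted p = 0.0481), and leaving out any 1 of the 6 libraries ended the call (adjusted p from 0.0795 to 0.164). It measured 92.6, 111 and 85.6 RPKM in GFP+ libraries and 55.9, 61.1 and 55.6 RPKM in GFP− libraries, a log2 fold change of 0.73 ± 0.12 (adjusted p = 0.000388).

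The other members that rose in GFP+ cells came from complexes I, III, IV and V. Ndufv1, the NADH-binding subunit of complex I, measured 69.0, 89.4 and 71.7 RPKM in GFP+ and 46.3, 54.0 and 54.9 RPKM in GFP− libraries, a log2 fold change of 0.55 ± 0.13 (SE; limma adjusted p = 0.00477). Atp5g2, which encodes the ring subunit c of ATP synthase, measured 269, 371 and 251 RPKM in GFP+ and 177, 209 and 211 RPKM in GFP− libraries, a log2 fold change of 0.56 ± 0.16 (adjusted p = 0.0130). The groups of these genes did not overlap. Cox6a1, the general form of subunit 6A, rose by 0.53 ± 0.16 (adjusted p = 0.0177), Cox7a2l by 0.52 ± 0.19 (adjusted p = 0.0471) and Uqcrc2 by 0.38 ± 0.12 (adjusted p = 0.0217) on the log2 scale. None of these 5 passed between SIX2+ and SIX2− cells. The calls of Atp5g2, Cox6a1, Cox7a2l and Uqcrc2 were lost when single libraries were left out: Atp5g2 without GFP+ 2 or GFP− 1 (adjusted p = 0.0528 and 0.0629), Cox6a1 without GFP+ 3, GFP− 1 or GFP− 2 (0.0546 to 0.0774), Cox7a2l without GFP+ 1 or 2 or GFP− 1 or 3 (0.0815 to 0.21) and Uqcrc2 without the same 4 libraries (0.0531 to 0.0848), while Ndufv1 and Uqcrfs1 passed without any 1 library.

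Whether the members' enrichment differed between the sorts was tested directly. Of the 79 members 0 passed limma's interaction test, (SIX2+ minus SIX2−) minus (GFP+ minus GFP−), at an adjusted p under 0.05, and 0 had an unadjusted p under 0.05; 0.14% of all genes passed, 0.0468% with a positive and 0.0936% with a negative difference. With library weights 5 members passed. The members' median difference was −0.24 on the log2 scale, beside −0.06 over all genes. Of the 79 members 77 lay below 0, beside 7633 of all 12817 genes tested, of which 703 had an unadjusted p under 0.05. Ndufa4l2 had a difference of −0.67 ± 0.45 and Uqcrq, a small complex III subunit, −0.50 ± 0.42 (SE).

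**Figure D3:**
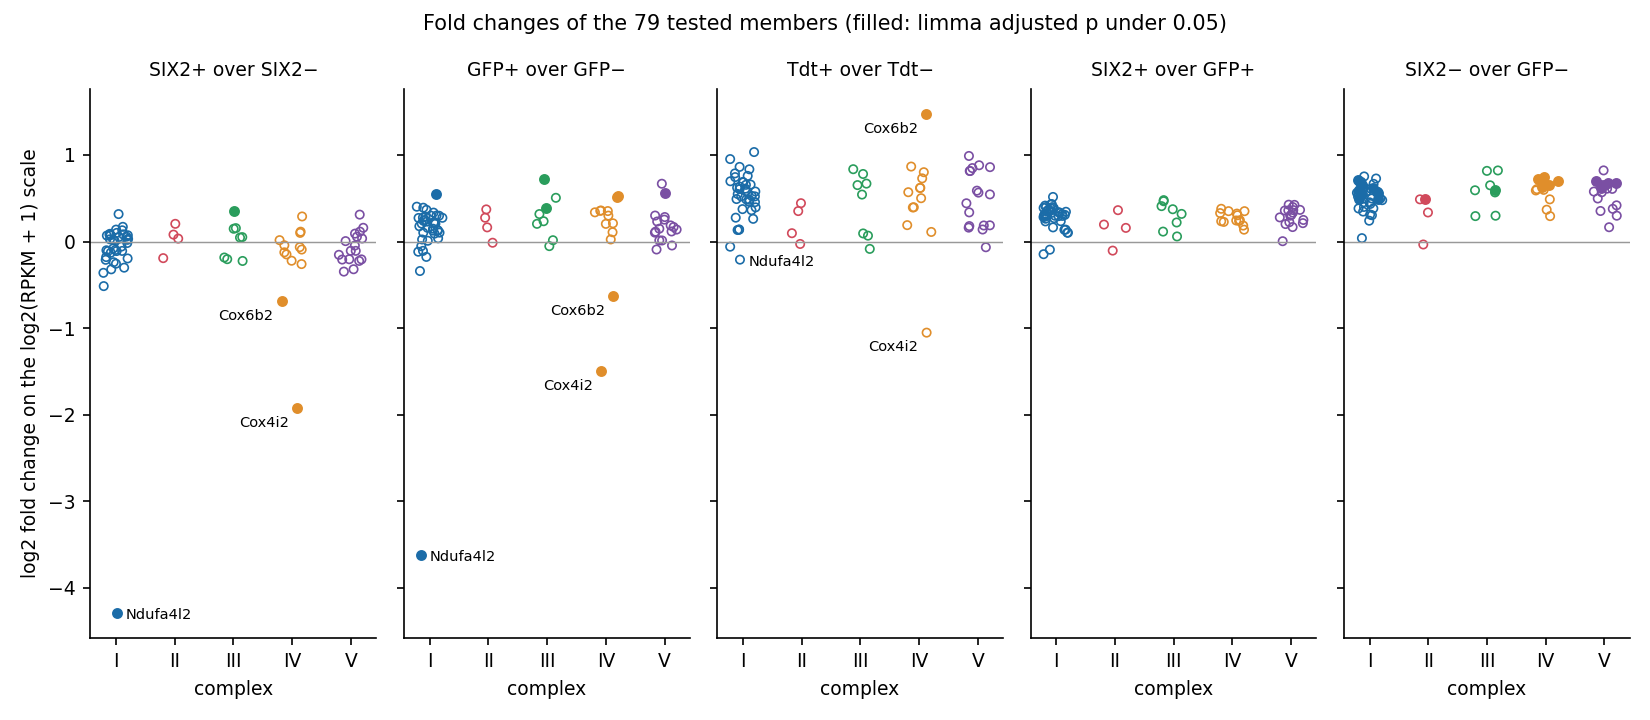
Log2 fold change of the 79 tested members (vertical axis, log2(RPKM + 1) scale) by complex (horizontal axis) in 5 comparisons; filled points have a limma adjusted p under 0.05. Most members lie near 0 in SIX2+ over SIX2− cells and above 0 in the Tdt, SIX2+ over GFP+ and SIX2− over GFP− comparisons, while Ndufa4l2 and Cox4i2 lie far below in the SIX2 and GFP sorts.

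Other tissue-restricted forms were close to undetected in all groups, which is why 4 members were not tested. Cox6a2, Cox7b2 and Cox8b, known from muscle or testis, did not exceed 0.341 RPKM in any library, and Cox6a2 was listed at 0 in 17 of the 19. Cox7a1, the heart and muscle form, measured 0.799, 0.418 and 0.820 RPKM in SIX2+ libraries and 1.14, 0.820 and 0.676 RPKM in SIX2− libraries. It measured 0.864 and 1.29 RPKM in Tdt+ libraries and 0.536 and 0.930 RPKM in Tdt− libraries, so the groups overlapped at both stages. Their general forms were high, with means over the E16.5 libraries of 238 RPKM for Cox6a1, 125 RPKM for Cox7a2, 93.7 RPKM for Cox7b and 317 RPKM for Cox8a. Of the 3 genes for the ATP synthase ring subunit, Atp5g3 averaged 321 RPKM, Atp5g2 277 RPKM and Atp5g1 113 RPKM at E16.5.

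Promoters are shown of Cox6b2, which was lower in the progenitors of both sorts, to set it beside its general form Cox6b1, and of Uqcrfs1, which rose in the progenitors of both, and Cox6a1, which rose in GFP+ cells. The windows run from 250 bases before to 50 bases after the gene start and are from RefSeq on GRCm38.p6, all on the minus strand: Cox6b2 at chr7:4753045-4753344, Cox6b1 at chr7:30626065-30626364, Cox6a1 at chr5:115348909-115349208 and Uqcrfs1 at chr13:30545267-30545566. Capitals mark matches to 3 motifs on either strand, the palindromic site of nuclear respiratory factor 1 (NRF1), which is GCATGC with GC on each side, the ETS core CCGGAAG that GABP also binds, and the YY1 motif AAGATGGC.
Cox6b2: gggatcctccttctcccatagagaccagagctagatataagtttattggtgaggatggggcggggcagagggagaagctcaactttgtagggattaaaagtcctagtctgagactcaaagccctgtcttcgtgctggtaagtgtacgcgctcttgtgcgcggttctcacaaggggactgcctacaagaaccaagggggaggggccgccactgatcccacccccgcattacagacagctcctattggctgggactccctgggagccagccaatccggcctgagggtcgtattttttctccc
Cox6b1: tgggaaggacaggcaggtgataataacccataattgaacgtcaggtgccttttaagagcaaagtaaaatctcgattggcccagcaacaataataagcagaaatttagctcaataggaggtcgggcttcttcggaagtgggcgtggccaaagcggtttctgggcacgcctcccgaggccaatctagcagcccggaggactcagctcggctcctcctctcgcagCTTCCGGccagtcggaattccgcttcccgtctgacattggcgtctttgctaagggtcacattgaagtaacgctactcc
Cox6a1: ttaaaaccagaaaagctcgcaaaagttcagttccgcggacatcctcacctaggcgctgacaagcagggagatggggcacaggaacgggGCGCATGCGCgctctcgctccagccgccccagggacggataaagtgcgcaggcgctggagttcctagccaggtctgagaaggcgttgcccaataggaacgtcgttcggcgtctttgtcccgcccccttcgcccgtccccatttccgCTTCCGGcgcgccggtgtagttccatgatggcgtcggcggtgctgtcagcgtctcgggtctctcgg
Uqcrfs1: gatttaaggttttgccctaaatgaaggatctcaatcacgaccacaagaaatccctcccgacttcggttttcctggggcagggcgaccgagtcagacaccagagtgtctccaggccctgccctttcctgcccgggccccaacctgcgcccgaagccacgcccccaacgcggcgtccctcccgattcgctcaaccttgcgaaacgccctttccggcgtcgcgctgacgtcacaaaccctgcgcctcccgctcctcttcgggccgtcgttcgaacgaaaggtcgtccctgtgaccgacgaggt
The Cox6b1 window holds the ETS core from base −28 of the gene start, and the Cox6a1 window holds the NRF1 site from base −162 and the ETS core from base −16. These letters are not in the Cox6b2 or Uqcrfs1 windows. Ndufa4l2 and Cox4i2 were not matched to a window.

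RefSeq windows were matched for 66 of the members. The ETS core was in 16 of them (24.2%), against 9.93% of 27025 genes with a window. The NRF1 site was in 5 (7.58%), against 1.07%, and its shorter core GCATGC, which lies within it, in 13 (19.7%), against 8.93%. The YY1 motif was in 9 (13.6%), against 3.19%. The hypoxia response core ACGTG was in 16 (24.2%), against 21.8%, and TATAAA was in 7 (10.6%), against 15.7%. The matches are descriptions of letters in these windows and say nothing of binding.

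In the stromal lineage at E14.5, most members were higher in Tdt+ than in Tdt− cells, but few passed the test. Of the 79 members 1 passed, Cox6b2, where 8.43% of all 12383 genes passed, 1.22% higher and 7.21% lower. With the replicate block 14 members passed. Of the 79 members 73 lay above 0 and 21 had an unadjusted p under 0.05, beside 5789 and 2822 of all 12383 genes tested. The members' median log2 fold change was 0.54, beside −0.04 over all genes. With values rescaled to TPM, these medians were 0.32 for the members and −0.29 for all genes. The complex medians were 0.55 for complex I, 0.22 for II, 0.60 for III, 0.57 for IV and 0.54 for V.

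The shift rested on 1 library. The members' median level was 6.14 and 6.93 in Tdt+ libraries 1 and 2, against 6.0 and 5.99 in Tdt− libraries on the log2(RPKM + 1) scale. Tdt+ library 1 thus lay close to the Tdt− libraries. Without Tdt+ library 2, the members' median log2 fold change was 0.13. The estimated depth was lower in both Tdt+ libraries than in either Tdt− library, and its part in the shift was not tested.

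Cox6b2, which was lower in both kinds of nephron progenitor, was higher in the stromal lineage. It measured 24.8 and 46.9 RPKM in Tdt+ libraries and 10.7 and 12.7 RPKM in Tdt− libraries, a log2 fold change of 1.47 ± 0.31 (SE; limma adjusted p = 0.0272). The call held without either Tdt+ library and was lost when genes at low values were kept in the test (adjusted p = 0.151). Cox4i2 measured 0.580 and 1.96 RPKM in Tdt+ libraries and 3.28 and 3.69 RPKM in Tdt− libraries, without overlap; its log2 fold change of −1.05 ± 0.33 did not pass (adjusted p = 0.0997). Ndufa4l2 measured 4.16 and 7.75 RPKM in Tdt+ libraries and 4.75 and 9.49 RPKM in Tdt− libraries, which overlapped (adjusted p = 0.783). Of 9 cortical stroma markers 3 were higher in Tdt+ cells, with sums of 1669 to 2661 RPKM in Tdt+ and 2271 to 3096 RPKM in Tdt− libraries, and 4 of 6 endothelial markers were lower.

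More members passed between the negative fractions of the 2 sorts than between the progenitors; that contrast of contrasts is the interaction above, in which 0 members passed. Between SIX2− and GFP− cells 22 of the 79 members were higher and 0 lower in SIX2− cells, where 10.1% of all genes passed, 5.7% higher and 4.42% lower. The members' median log2 fold change was 0.57, beside 0.10 over all genes. Of the 79 members 78 lay above 0, beside 7719 of all 12817 genes tested. Called members came from all 5 complexes: 9 of 37 in complex I, 1 of 4 in II, 1 of 8 in III, 6 of 13 in IV and 5 of 17 in V.

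Among the 22 called members, Cox5a of complex IV had the largest change. It measured 175, 186 and 146 RPKM in SIX2− libraries and 89.0, 104 and 107 RPKM in GFP− libraries, a log2 fold change of 0.75 ± 0.16 (SE; limma adjusted p = 0.0134). Cox8a measured 379, 407 and 358 RPKM in SIX2− libraries and 212, 243 and 249 RPKM in GFP− libraries, a log2 fold change of 0.70 ± 0.14 (adjusted p = 0.00962). Cox6c, another small subunit, rose by 0.72 ± 0.20 (adjusted p = 0.0373). Ndufa12, an accessory subunit of complex I, rose by 0.71 ± 0.19 (adjusted p = 0.0340), and the ATP synthase genes Atp5g1 and Atp5l by 0.70 ± 0.21 (adjusted p = 0.0481) and 0.68 ± 0.20 (adjusted p = 0.0451). Sdhd was the 1 called subunit of complex II, at 101, 105 and 88.9 RPKM in SIX2− libraries and 66.5, 72.8 and 69.2 RPKM in GFP− libraries. None of these genes overlapped between the groups.

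The count of 22 varied widely with the libraries and the scaling. It was 0 without SIX2− library 2 and 0 without GFP− library 1, 5 without SIX2− library 1, 4 without GFP− library 2, 13 without GFP− library 3, 60 without NZC library 2, 58 when only SIX2− and GFP− libraries were fitted, 75 with library weights, 47 with the replicate block, and 7 to 10 when values were rescaled by median ratios, to TPM or by quantiles. The share of all genes called by each of these fits is not given. With TPM the median over all genes moved to −0.06 and that of the members to 0.38. The GFP− libraries also held far more red cell RNA: the summed level of 10 erythroid markers was 12.7 to 30.3 RPKM in SIX2− libraries and 1254 to 13024 RPKM in GFP− libraries, and 6 of the 10 were lower in SIX2− cells. Its part in the difference was not tested. The calls of all subunits named in this comparison were lost without SIX2− library 2 or GFP− library 1. Sorting method, allele and tissue zone cannot be told apart in this comparison, and the RNA kit of each library is not given.

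Between the 2 kinds of nephron progenitor, SIX2+ and GFP+ cells, 0 of the 79 members passed limma's test, 11 had an unadjusted p under 0.05, and 3.07% of all genes passed, 0.772% higher and 2.3% lower. The members' median log2 fold change was 0.30, beside 0.05 over all genes, with 76 above 0. Of all 12817 genes tested, 7332 lay above 0 and 1983 had an unadjusted p under 0.05. The count was 22 with library weights, 3 without NZC library 2 and 2 without GFP+ library 2. The members with the largest changes were Ndufb4, an accessory subunit of complex I, at 0.52 ± 0.23 (adjusted p = 0.290) and Uqcr10, a small subunit of complex III, at 0.48 ± 0.30 (SE; adjusted p = 0.492). With library weights both passed (adjusted p = 0.0078 and 0.039), and Ndufb4 also passed without NZC library 2 (adjusted p = 0.0322). Ndufa4l2, Cox4i2 and Cox6b2 each overlapped between SIX2+ and GFP+ libraries. Fixation with antibody sorting, allele and source tissue differ together between these groups, and the RNA kit of each library is not given. Their parts in the shift cannot be told apart.

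Against the unsorted NZC, 11 members were higher and 2 lower in SIX2+ cells, where 36.6% of all genes passed, 18.1% higher and 18.5% lower. This comparison shares its SIX2+ libraries with that against SIX2− cells. Ndufa4l2 fell by 2.87 ± 0.32 and Cox4i2 by 1.62 ± 0.48 on the log2 scale (SE; limma adjusted p = 1.62e-05 and 0.0174). Atp5sl had the largest rise, at 13.2, 13.1 and 16.9 RPKM in SIX2+ libraries and 7.58, 2.11 and 10.1 RPKM in NZC libraries, a log2 fold change of 1.20 ± 0.32 (adjusted p = 0.0112). Cox6a1 rose by 0.67, Atp5g2 by 0.60, Ndufb3, a complex I accessory subunit, by 0.56, Ndufb9, of the same group, by 0.50 and Atp5d, the delta subunit of ATP synthase, by 0.50. When only SIX2+ and NZC libraries were fitted, Ndufa4l2 and Atp5g2 alone were called, and the other members named here were not (adjusted p from 0.0543 to 0.102). Without NZC library 2 the members called numbered 21, without SIX2+ library 1 they numbered 6 and without SIX2+ library 3 they numbered 7. Single libraries also ended the calls of Cox4i2 (without SIX2+ 3, adjusted p = 0.0535), Ndufb9 (without SIX2+ 1, 0.071), Ndufb3 (without SIX2+ 1 or NZC 2, 0.0991 and 0.0717) and Atp5d (without SIX2+ 1 or 3 or NZC 1 or 2, 0.064 to 0.149). Markers of other cells moved with this comparison: 6 of 10 erythroid markers were lower in SIX2+ cells, with sums of 2.40 to 4.12 RPKM in SIX2+ and 450 to 4723 RPKM in NZC libraries. All 9 cortical stroma markers were lower, with sums of 51.8 to 59.5 RPKM in SIX2+ and 1060 to 1928 RPKM in NZC libraries, as were all 6 endothelial markers (2.24 to 5.57 RPKM and 40.8 to 239.8 RPKM in these groups). Their part in these changes was not tested.

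Most members are short and highly expressed, so their shifts were set beside those of other genes of the same kind. Of the 78 tested members with an annotated length, 50 had a mean of at least 50 RPKM and an exonic length under 1500 bases at E16.5, and 47 did at E14.5; 349 other genes met these limits in each table. In SIX2− over GFP− cells the median log2 fold change was 0.61 for the members within the limits and 0.51 for the other genes within them, of which 76 were higher and 4 lower; the 28 longer or less abundant members had 0.38. In Tdt+ over Tdt− cells the median was 0.59 for the members within the limits and 0.59 for the other genes, and 0.36 for the remaining 31 members. Within the limits, members and other genes had 0.33 and 0.27 in SIX2+ over GFP+ cells, 0.20 and 0.25 in GFP+ over GFP− cells, 0.25 and 0.29 in SIX2+ over NZC, and −0.09 and 0.01 in SIX2+ over SIX2− cells. Other genes with a mean under 50 RPKM lay between −0.09 and 0.08.

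**Figure D4:**
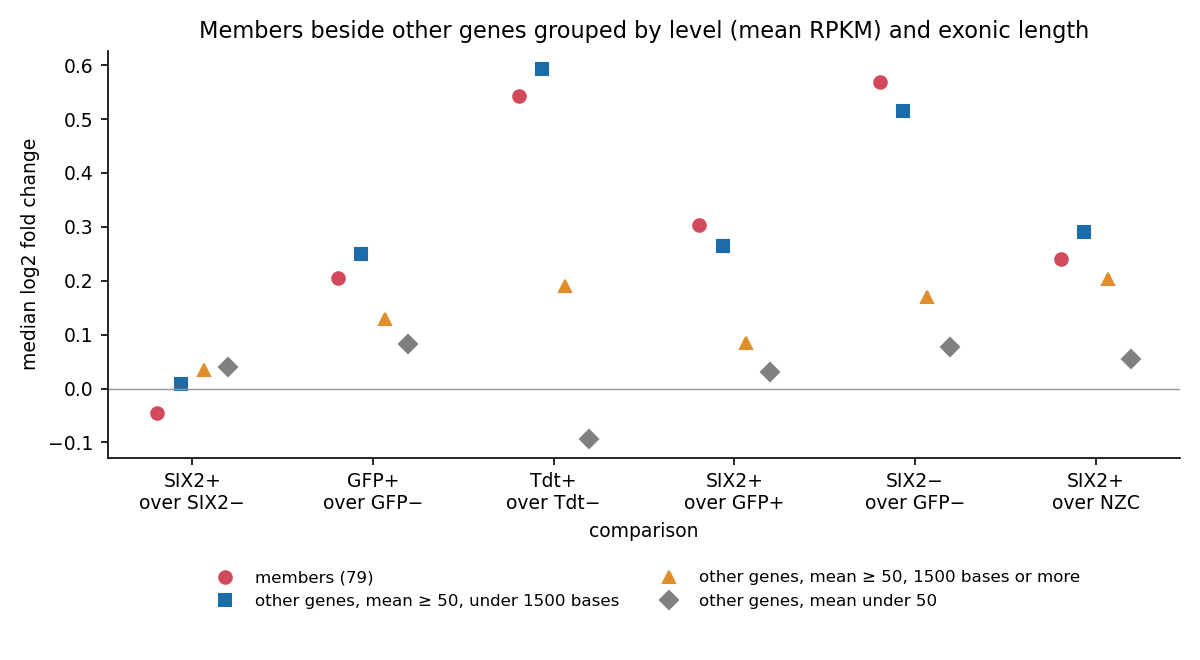
Median log2 fold change (vertical axis) in 6 comparisons (horizontal axis) of the members (red), of other genes with a mean of at least 50 RPKM and exons under 1500 bases (blue), of other such genes with longer exons (orange) and of other genes with a mean under 50 RPKM (grey). Red and blue lie close together in every comparison, above the grey points in all but SIX2+ over SIX2−.

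Genes that act around the respiratory chain were counted in 6 lists. None of them passed the interaction test between the sorts. Over all genes tested, 8.37% were higher and 15.9% lower in SIX2+ over SIX2− cells, 15.9% and 17% in GFP+ over GFP− cells, 1.22% and 7.21% in Tdt+ over Tdt− cells and 5.7% and 4.42% in SIX2− over GFP− cells. Of 42 tested assembly factors, 2 rose and 1 fell in SIX2+ over SIX2− cells, and 11 rose and 0 fell in GFP+ over GFP− cells. Uqcc2, an assembly factor of complex III, fell by 1.38 ± 0.35 in SIX2+ over SIX2− cells (SE; limma adjusted p = 0.0100) and Sco2, a copper carrier for complex IV, rose by 0.54 ± 0.15 (adjusted p = 0.0138). Ndufaf6 and Timmdc1, assembly factors of complex I, rose by 0.65 ± 0.19 and 0.64 ± 0.14 in GFP+ over GFP− cells (adjusted p = 0.0169 and 0.00248). In Tdt+ over Tdt− cells Uqcc2 was the 1 called factor of 43, with a log2 fold change of 1.49 ± 0.28 (adjusted p = 0.0170). Single libraries ended the calls of Uqcc2 in the SIX2 sort (without SIX2+ 2, adjusted p = 0.0534), Sco2 (without SIX2+ 3 or SIX2− 1, 0.0734 and 0.0536) and Ndufaf6 (without GFP+ 3 or GFP− 2, 0.0583 and 0.0772), but not that of Timmdc1. The Uqcc2 call at E14.5 was lost when genes at low values were kept in the test (0.11). Without Tdt− 2 its log2 fold change was 1.32. The count of 11 in the GFP sort was 6 without GFP+ 2, 7 without GFP+ 3, GFP− 1 or GFP− 2 and 16 without NZC 2; the count of 3 in the SIX2 sort ran from 2 to 4. At E14.5 the count was 8 without Tdt+ 1 and 0 without Tdt− 2. With library weights, 16 factors were called in the SIX2 sort and 20 in the GFP sort.

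Of 19 tested respiratory chain genes outside the name patterns, 1 rose in SIX2+ over SIX2− cells and 4 rose in GFP+ over GFP− cells. Gpd2, the mitochondrial glycerol phosphate dehydrogenase, rose in each, by 0.70 ± 0.21 (SE; limma adjusted p = 0.0236) and 0.69 ± 0.21 (adjusted p = 0.0210), and fell by 1.75 ± 0.24 in Tdt+ over Tdt− cells (adjusted p = 0.00521). Coq4, which acts in coenzyme Q synthesis, rose by 0.67 ± 0.17 in GFP+ over GFP− cells (adjusted p = 0.00785). Of 17 genes of the tricarboxylic acid cycle and pyruvate dehydrogenase, 1 rose in SIX2+ over SIX2− cells, the succinate ligase subunit Suclg2, by 0.62 ± 0.18 (adjusted p = 0.0211). In GFP+ over GFP− cells 4 of the 17 rose, led by Pdhb, a pyruvate dehydrogenase subunit, by 0.78 ± 0.16 (adjusted p = 0.00187) and Idh3b, an isocitrate dehydrogenase subunit, by 0.43 ± 0.13 (adjusted p = 0.0191). Single libraries ended the calls of Gpd2 in the SIX2 sort (without SIX2+ 1 or 2 or SIX2− 1 or 3, adjusted p from 0.0541 to 0.107) and in the GFP sort (without any but GFP+ 2, 0.0514 to 0.0773), of Suclg2 (without any but SIX2− 3, 0.0506 to 0.0674) and of Idh3b (without GFP+ 2 or GFP− 1, 0.0832 and 0.0897). Coq4 and Pdhb in the GFP sort passed without any 1 library. The Gpd2 call in the Tdt comparison was lost when genes at low values were kept in the test (adjusted p = 0.0637). In the SIX2 sort, each list had 3 called genes without NZC 2, and 6 and 8 with library weights. Each had 2 with the replicate block. The outside-pattern genes had 0 without SIX2+ 1 or 2 or SIX2− 1, and the cycle genes had 0 without any SIX2 library but SIX2− 3. In the GFP sort the 4 outside-pattern genes were 1 or 2 without any 1 GFP library and 8 without NZC 2, and the 4 cycle genes were 1 without GFP+ 2 or GFP− 1, 2 without GFP− 2 and 6 without NZC 2. With library weights the GFP counts were 12 and 8. At E14.5 the outside-pattern genes called numbered 1, and 8 without Tdt+ 1.

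Of 18 tested regulators of mitochondrial biogenesis, 1 rose in SIX2+ over SIX2− and 4 in GFP+ over GFP− cells. Peo1, the mitochondrial DNA helicase, rose in each, by 0.70 ± 0.19 (SE; limma adjusted p = 0.0135) and 0.83 ± 0.19 (adjusted p = 0.00361), and the coactivator gene Ppargc1b rose by 0.67 ± 0.23 in GFP+ over GFP− cells (adjusted p = 0.0372). Of 19 import and carrier genes, 0 passed by limma in SIX2+ over SIX2− cells. There 3 of them had an unadjusted p under 0.05, beside 4301 of all 12817 genes tested. In GFP+ over GFP− cells 6 rose, led by the phosphate carrier Slc25a3, by 0.72 ± 0.14 (adjusted p = 0.00106), and the citrate carrier Slc25a1, by 0.68 ± 0.20 (adjusted p = 0.020). In the glycolysis list of 21 genes, 3 rose and 2 fell in SIX2+ over SIX2− cells, and 3 rose and 1 fell in GFP+ over GFP− cells. Slc16a3, a lactate exporter, rose in each, by 1.15 ± 0.28 (adjusted p = 0.00682) and 0.84 ± 0.28 (adjusted p = 0.0328). Pfkp, a phosphofructokinase, fell by 1.14 ± 0.24 in SIX2+ over SIX2− cells (adjusted p = 0.00250), and Eno2, an enolase, fell by 1.07 ± 0.18 in GFP+ over GFP− cells (adjusted p = 0.000322). In Tdt+ over Tdt− cells 0 genes of the cycle, biogenesis and import lists passed and Pfkp was the 1 called gene of glycolysis, falling by 1.10 ± 0.25 (adjusted p = 0.0330). The calls of Slc16a3 and Ppargc1b in the GFP sort were lost without 5 and 4 of the 6 libraries (adjusted p from 0.0507 to 0.122 and from 0.0816 to 0.136). That of Slc25a1 was lost without GFP+ 2, GFP− 1 or GFP− 2 (0.0639 to 0.0694) and that of Peo1 in the SIX2 sort without SIX2+ 3 or SIX2− 1 (0.0581 and 0.0749). The Pfkp call at E14.5 was lost with a pseudocount of 0.1 (0.0586), with genes at low values kept (0.109) and with quantile normalisation (0.196). Without Tdt+ 2 its log2 fold change was −0.91.

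The counts of these 3 lists moved with single libraries as well. Slc25a1 had a log2 fold change of 0.47 in SIX2+ over SIX2− cells (adjusted p = 0.118), and it passed there without NZC 2 (0.012), when only these 2 groups were fitted (0.0325) and with library weights (0.00159). The import genes called in the SIX2 sort numbered 2 without NZC 2, and the 6 in the GFP sort were 3 without GFP+ 2 and 10 without NZC 2. The biogenesis count in the SIX2 sort was 0 without SIX2− 1, 2 without SIX2− 3, 3 without NZC 2 and 3 with the replicate block, and that in the GFP sort was 2 without GFP− 1 and 7 without NZC 2. The glycolysis count of 5 in the SIX2 sort was 2 without SIX2− 1 and 3 without SIX2+ 2, SIX2+ 3 or SIX2− 2. The count of 4 in the GFP sort was 1 without GFP+ 2, GFP− 1 or GFP− 2, 2 without GFP− 3, 9 without NZC 2 and 10 with the replicate block. Library weights gave 7 import genes, 8 regulators and 11 glycolysis genes in the SIX2 sort, and 12, 9 and 15 in the GFP sort. At E14.5, leaving out a library leaves a single library in its group, and the counts of these lists from such fits are not given.

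In SIX2− over GFP− cells, with all libraries fitted, all called genes of the neighbouring lists were higher in SIX2− cells. Of 42 assembly factors 4 rose and 0 fell, led by Cox17, a copper chaperone of complex IV, by 0.97 ± 0.19 (SE; limma adjusted p = 0.00768). Of 19 import and carrier genes 3 rose, led by Timm50, of the inner membrane translocase, by 0.66 ± 0.14 (adjusted p = 0.0138). Of 17 genes of the tricarboxylic acid cycle list 3 rose, led by Pdhb, by 0.56 ± 0.16 (adjusted p = 0.0430), and of 19 other respiratory chain genes 4 rose, led by Coq4, by 0.68 ± 0.17 (adjusted p = 0.0264). In the glycolysis list Ldhb, a lactate dehydrogenase subunit, was the 1 called gene of 21, rising by 0.82 ± 0.22 (adjusted p = 0.0306). None of 18 biogenesis regulators passed by limma. Gabpa, which encodes the DNA-binding subunit of GABP, had the largest change among them, −0.67 ± 0.25 (adjusted p = 0.0969). Gabpa passed with the replicate block (adjusted p = 0.034), without NZC 2 (0.0419) and when only the 2 groups were fitted (0.0369). It also passed with median-of-ratios scaling (0.049) and with library weights (5.22e-05). Each of the 5 calls named here was lost without SIX2− library 2 (adjusted p from 0.0522 to 0.177). Without it, the counts of all 6 lists were 0. Without SIX2− 1 or GFP− 1, 2 or 3 at most 3 genes of any list were called, and without NZC 2 the counts were 16 assembly factors, 9 import genes, 5 cycle genes, 9 other chain genes, 1 glycolysis gene and 4 regulators. With the replicate block the same lists had 10, 7, 6, 8, 3 and 2 called genes, and with library weights 32, 19, 9, 15, 10 and 11.

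Some members share sequence with copies elsewhere in the genome, and how reads were assigned among the copies was not tested. Of 84 members with a transcript, Cox8c included, 45 share at least 1 window of 50 bases, on either strand, with another gene. That number includes neighbours whose exons overlap the member, so it is not a count of copies elsewhere. Atp5o and Atp5l share over 50% of their windows (89.8% and 84.8%). For Atp5o the leading genes are Donson and a second Atp5o entry, whose exons overlap its own. Pseudogenes share 13.5% of the Atp5o windows and 68.5% of the Atp5l windows. Ndufs5, a complex I accessory subunit chosen after its values were seen, shares 31.1% of its windows, all with the pseudogene BC002163. Ndufs5 measured 1.73 to 3.35 RPKM in the 4 E14.5 libraries, where BC002163 measured 24.5 to 60.4 RPKM. At E16.5, Ndufs5 measured 43.2 to 78.4 RPKM in 9 libraries of replicates 1 and 2, and BC002163 5.52 to 16.6 RPKM. In the 5 libraries of replicate 3 the same genes measured 16.9 to 25.0 RPKM and 5.36 to 11.9 RPKM, and in NZC library 2 they measured 8.90 RPKM and 54.3 RPKM. The pseudogene was above the gene in the E14.5 libraries and NZC library 2, and below it elsewhere.

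**Figure D5:**
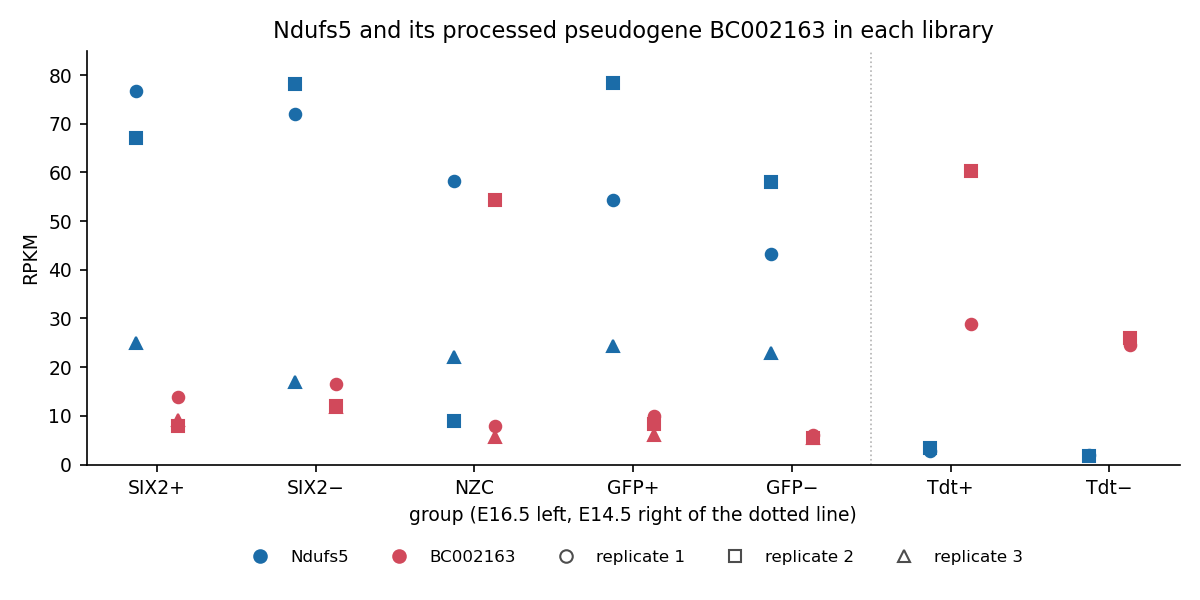
RPKM (vertical axis) of Ndufs5 (blue) and of its processed pseudogene BC002163 (red) in each library of the 7 groups (horizontal axis; E14.5 lies right of the dotted line), with the replicate number as the shape. Ndufs5 is above the pseudogene in all E16.5 libraries but NZC library 2, is lower in replicate 3 than in replicates 1 and 2 of each sorted E16.5 group, and is near 0 at E14.5.

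Cox7c, a small subunit of complex IV also chosen after its values were seen, was likewise lower in replicate 3 of each E16.5 group. It shares 27.9% of its windows, with pseudogenes that include Gm12338. Cox7c measured 230 to 367 RPKM in the 9 libraries of replicates 1 and 2 without NZC library 2, 147 to 207 RPKM in the 5 of replicate 3, 308 RPKM in NZC library 2 and 104 to 238 RPKM at E14.5. Gm12338 was listed at 0 in every E16.5 library and measured 71.0 to 169 RPKM at E14.5. Cox7c lay above it in all 19 libraries. Levels of such members are therefore not compared between the tables. Exons of 29 members overlap those of another gene.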

How the data were processed

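Poly(A) RNA libraries were made with a stranded kit from Kapa, and RNA was isolated with the RecoverAll and RNeasy Micro kits, per the labels' protocols. Per the submitters' processing notes, the tools include TopHat2 and Partek and the build was mm10, without versions; which annotation was used is not given in the sources used here. A pair of tables titled TPM, with a value per gene and library, was deposited by the authors. These deposited values behave as RPKM: column sums varied by 7.99% (coefficient of variation, E16.5) and 13.8% (E14.5), and by 1.91% and 1.55% after multiplication by exonic length from GENCODE M21 (GRCm38). The tests had been designed for TPM and were run unchanged on RPKM. Rescaling to TPM changed some results, as given for SIX2− over GFP− and Tdt+ over Tdt− cells. It also ended the limma calls of Gpd2 and Suclg2 in the SIX2 sort (adjusted p = 0.0613 and 0.0581). In the GFP sort the calls of Cox6a1, Gpd2, Ndufaf6, Ppargc1b, Slc25a1 and Slc16a3 ended (0.0548 to 0.0929). In SIX2+ over NZC that of Atp5d ended (0.0662). The tables were normalised separately and tested separately.

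Values were compared as log2(RPKM + 1) with limma 3.58.1 (lmFit, eBayes with trend, two-sided) in R 4.3.3, and fold changes on this scale understate changes of low genes. Genes at 1 RPKM or more in at least 3 (E16.5) or 2 (E14.5) libraries were tested, 12817 and 12383 genes. A call is a Benjamini-Hochberg adjusted p under 0.05 over all genes tested; the E16.5 fit held 15 libraries in 5 groups (10 residual degrees of freedom) and the E14.5 fit 4 (2 degrees). No read counts were used, and depth was estimated from low values. Sequences and figures were handled in python 3.11.15 (matplotlib 3.10.9, pandas 2.3.3, numpy 2.4.6) and with the R package data.table (version 1.17.8); the fit was tested on simulated data.

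No expression value entered the rule that picked the members by symbol, but that rule and all lists were set with earlier results of these data known. Named are, per comparison, the 6 called members with the largest change in each direction (the 2 largest where none passed), the highest and lowest member of each complex, isoform pairs, complex II, and from each list up to 2 called genes in 4 of the comparisons (otherwise the largest). List genes are not named for the comparisons SIX2+ with GFP+ and with NZC. Ndufs5, Cox7c, their pseudogenes and Uqcrq were named after their values were seen.

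Replicate numbers are shared across groups. Deviations from group means correlated between same-numbered SIX2+ and SIX2− (r = 0.64, 0.28 and 0.68), GFP+ and GFP− (0.45, 0.44 and 0.39) and SIX2− and GFP− libraries (0.46, 0.44 and 0.55). There every r reached 0.1, the minimum set for treating numbers as matched, but not for SIX2+ and GFP+ (0.40, −0.02 and 0.58) or SIX2+ and NZC (0.28, 0.06 and 0.30). Such an r shows neither that libraries came from the same animals nor that they did not. GFP− cells carry Six2TGC/+, and no allele is given for SIX2− cells. The main fits did not use replicate numbers. With the block, the called members numbered 5 in the SIX2 sort, 13 in the GFP sort and 47 in SIX2− over GFP−, against 4, 9 and 22. Alternatives were pseudocounts, filters, scalings, library weights, the variance trend, the replicate block, the groups fitted and libraries left out.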

Additional observations from a re-analysis of the deposited data

How the results depend on the processing

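Of 133 alternative counts of called members, 99 stayed within 1.5 times the main one. The share of all genes called in each of these fits is not given, so the counts do not set members apart from other genes. With library weights, the called members numbered 31 in SIX2+ over SIX2−, 23 in GFP+ over GFP−, 22 in SIX2+ over GFP+, 75 in SIX2− over GFP− and 5 in the interaction. Fitting only the groups compared gave 7 in SIX2+ over SIX2−, 58 in SIX2− over GFP− and 2 in SIX2+ over NZC. Leaving out NZC library 2 gave 17 in GFP+ over GFP−, 3 in SIX2+ over GFP+ and 60 in SIX2− over GFP−. Replicates 1 and 2 only, an alternative chosen after seeing the data, gave 2, 5, 2 and 8 in SIX2+ over SIX2−, GFP+ over GFP−, SIX2− over GFP− and SIX2+ over NZC. In SIX2− over GFP−, quantile normalisation gave 10, median-of-ratios scaling 7 and rescaling to TPM 8. In Tdt+ over Tdt−, keeping all low genes gave 0. Leaving out in turn each library of the groups compared gave 3 to 3 in SIX2+ over SIX2− and 4 to 9 in GFP+ over GFP−. It gave 1 to 56 in Tdt+ over Tdt−, where each such fit leaves a single library in a group. It gave 0 to 2 in SIX2+ over GFP+, 0 to 23 in SIX2− over GFP−, 6 to 21 in SIX2+ over NZC and 0 to 0 in the interaction. Libraries of other groups in the fit are not covered by these ranges. The counts without NZC library 2 lay above them in 4 comparisons: 5 in SIX2+ over SIX2−, and the 17, 3 and 60 given above. With the replicate block, 47 members were called in SIX2− over GFP−, where same-numbered libraries correlated. The block moved no count of members in the SIX2 or GFP sort by over 1.5 times. With 2 libraries in each Tdt group, both replicate numbers give the same r (0.40) by construction. It does not settle whether they are pairs. In that comparison the block gave 14. Of single named members, 110 alternative values no longer passed, 3 newly passed and 494 kept their side of the threshold; Ndufa4l2 passed under every alternative in the SIX2 and GFP sorts. Of the named genes of the other lists, 127 alternative values no longer passed, 10 newly passed and 511 kept their side. The causes of these changes were not tested. Depth was estimated and not counted, at 3090000 reads in NZC library 2.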
